A study of Drosophila melanogaster with 6 samples.

Results

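The Cpr genes of Drosophila melanogaster encode cuticular proteins that carry the Rebers and Riddiford (R&R) consensus, a conserved stretch that binds chitin. The family was taken by name, as every protein-coding gene of a RefSeq gene table of assembly Release 6 whose symbol is Cpr followed directly by a number. The pattern gave 70 genes out of 13922 protein-coding genes on the arms X, 2L, 2R, 3L, 3R and 4. The rule used no measured value, though it was chosen with earlier results of these data known. The gene Cpr itself, which encodes an unrelated reductase, is not part of the family taken here.

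Insect cuticle is a layer of chitin fibres and proteins that epidermal cells secrete at their outer face and replace at each moult. Many cuticular protein genes sit side by side in the genome as products of local duplication, and pulses of the steroid hormone ecdysone set the stage at which they are switched on. The wing imaginal disc, the larval precursor of the wing and part of the thorax, secretes pupal and adult cuticle after the larva has stopped feeding. H3K27me3, trimethylated lysine 27 of histone H3, is the mark that Polycomb repressive complex 2 writes over genes kept silent.

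The study profiled H3K27me3 by CUT&RUN, in which an antibody directs a nuclease to cut out the chromatin that carries a mark, in wing discs of third-instar larvae. Discs carried Act5C-GAL4 and alphaTub84B-GAL80ts, a ubiquitous driver with its temperature-sensitive repressor, and expressed UASt-H3 K27M, an oncohistone with methionine in place of lysine 27, or UASt-H3 K27R, the control with arginine there. Each genotype had 2 H3K27me3 libraries and 1 IgG library. Larvae were reared at 25 °C, moved to 32 °C at 44 h after egg laying so that the transgene was on for 72 h, and dissected at 116 to 119 h, with 20 discs a replicate. Both genotypes therefore express a mutant H3 beside the endogenous histone, throughout the animal, and a disc without any transgene is not among these groups. The values below come from the authors' H3K27me3 peaks in H3K27R discs, which are 1 list of 1709 peaks for both replicates, and from the genes they list as upregulated with H3K27M. Neither list holds a value per replicate or a read depth, so each count is a complete count of annotated genes, with no error between replicates and no test. H3K27me3 in H3K27M discs was not analysed here, and the lists hold no expression values against which the tissue could be checked by markers.

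Few Cpr genes carried the mark in control discs. At least 1 bp of the gene lay in an H3K27me3 peak for 2 of the 70 genes (2.86%), Cpr35B and Cpr92F, while 7.22% of all protein-coding genes met this rule. The other 68 Cpr genes had no peak. Neither peak was strong, meaning one whose −log10 q-value reaches 10, as 16.6% of all peaks were. No Cpr gene thus overlapped a strong peak, while 3.43% of all protein-coding genes did. The share in all genes with a span of up to 2000 bp was 5.43% (354 of 6519), and 1 of the 53 Cpr genes of that size overlapped a peak, a lower share. Above 2000 and up to 5000 bp it was higher, at 1 of 10 Cpr genes against 5.1% of all genes, and above 5000 bp it was 0 of 7 against 13.0%. With gaps between peaks of up to 5000 bp bridged, the count of Cpr genes was again 2, while 7.34% of all protein-coding genes were then overlapped. With so few Cpr genes overlapped, none of these shares can be read as different from the share of all genes. These shares also count neighbouring genes one by one. Counted instead as clusters of Cpr genes up to 20 kb apart or single genes, 2 of 33 held a gene with a peak. No such share was computed over all genes, so whether the lower share holds by cluster was not tested.

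Cpr35B was the one member covered along its whole length. Its span of 875 bp on 2L (14424315 to 14425189) lay inside a peak of 6750 bp that began 374 bp before the gene and ended 5501 bp after it (2L 14423941 to 14430690). The peak had a fold enrichment of 2.47 over the peak caller's background, close to the median of 2.39 over all peaks, and a −log10 q-value of 3.63. No other protein-coding gene lay under this peak. It was the last of a row of peaks 27.18 kb long when gaps of up to 5000 bp are bridged, and the gap that joins it to the rest, 4646 bp, is close to that limit. The highest peak of the row, 6.0-fold over 7167 bp, covered all of Pburs, which encodes a subunit of bursicon, the hormone that triggers hardening and tanning of the new cuticle. Other peaks of the row lay over elB, a zinc finger gene of tracheal and appendage development of which 24.9% was covered, counting also 2 short peaks outside the row. Pburs and elB are the neighbours of Cpr35B on one side and were named after their values were seen.

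At Cpr92F the mark was a single short peak inside the gene. The peak measured 217 bp (3R 20671608 to 20671824) and covered 6.67% of the 3251 bp of Cpr92F (3R 20669571 to 20672821). It lay 2037 bp from one end of the gene and 997 bp from the other, so neither end was in a peak. Its fold enrichment was 2.26, with a −log10 q-value of 2.26, below the median fold of all peaks. Within 50 kb on either side of Cpr92F the peak was the only one: 0.21% of that window was covered, which is the peak itself. A rule that asks for at least 50% of the span, for a gene end in a peak, or for a peak of at least 3000 bp keeps Cpr35B alone, 1 of 70 (1.43%), against 4.04%, 4.58% and 4.2% of all protein-coding genes. So does a rule that asks for a fold enrichment at or above the median of all peaks, which 5.21% of all protein-coding genes met.

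**Figure D1:**
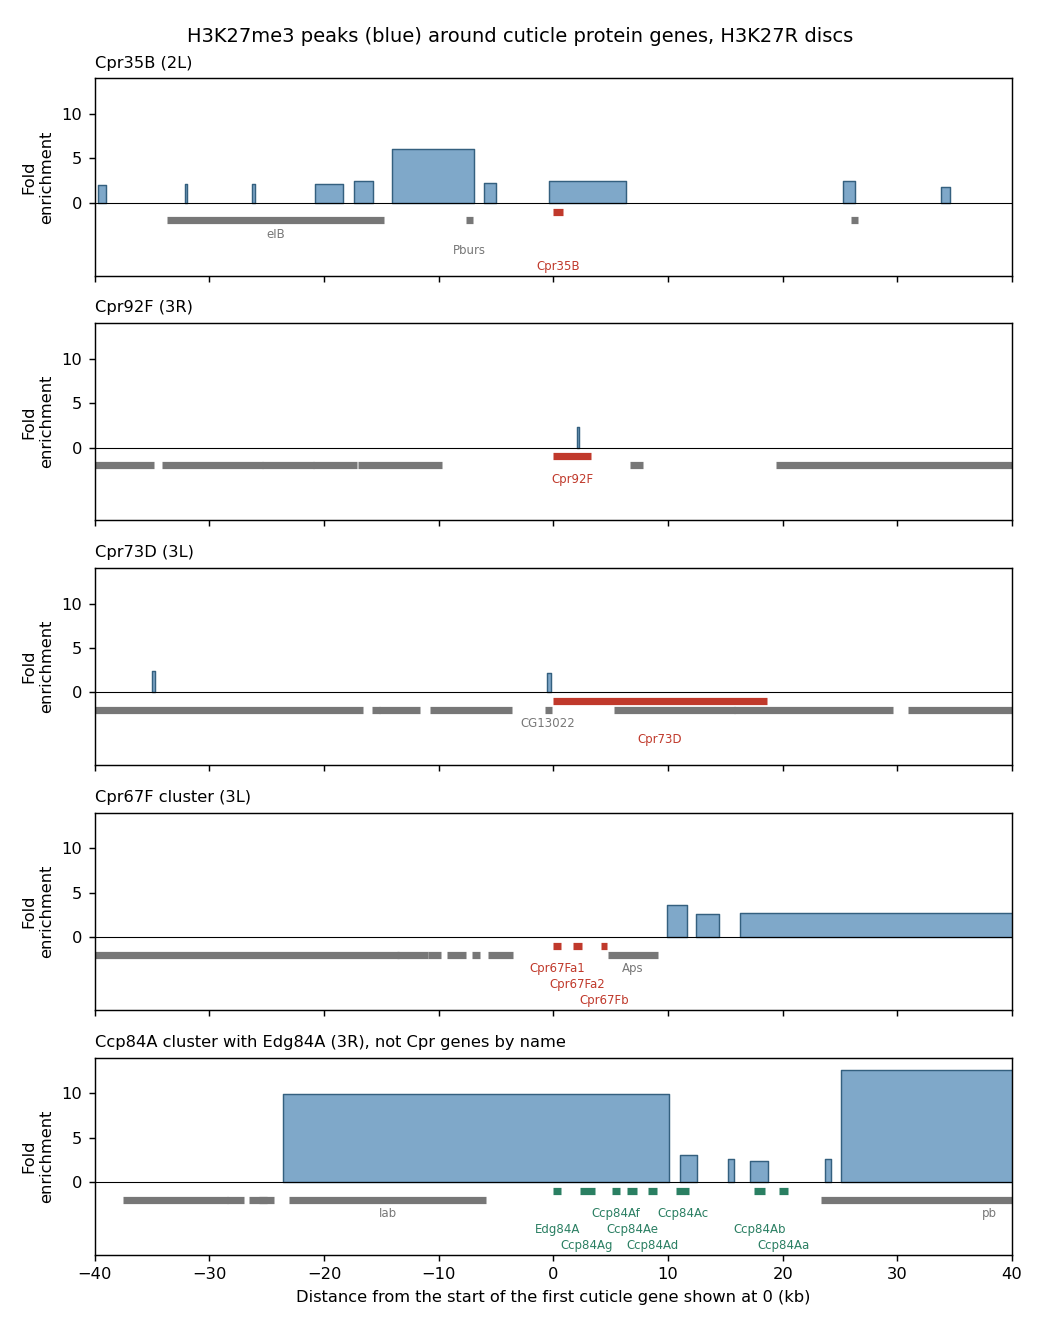
Peaks as blue boxes (height, the authors' fold enrichment; width to scale) and genes as bars (red, Cpr; green, other cuticular protein genes; grey, other protein-coding genes) around 5 loci in H3K27R discs, in kb from the start of the first cuticle gene shown. Cpr35B lies inside a peak of 2.47-fold beside a 6.0-fold peak over Pburs, Cpr92F holds one peak of 217 bp, Cpr73D and the Cpr67F genes lie beside peaks, and most of the Ccp84A genes lie in a 9.95-fold peak.

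The genes nearest to a peak without touching one show where the boundary of the count lies. Cpr73D, the longest member at 18590 bp (3L 16939100 to 16957689), lay 235 bp from a peak of 309 bp and 2.16-fold that sits in the neighbouring gene CG13022. Cpr66D lay 1434 bp from a peak of 1695 bp over CG13305, with a fold enrichment of 1.96. Cpr30F was 4550 bp, Cpr67Fb 5193 bp and Cpr11A 6364 bp from the nearest peak, and those peaks stood at 2.53-fold, 3.58-fold and 2.73-fold. The gene table gives no strand, so which of these peaks lie before a start site is not known from it. With 2 kb added on each side of the gene, which takes in positions before a start site whatever the strand, 4 Cpr genes met a peak (5.71%; all protein-coding genes, 9.83%), the added ones being Cpr66D and Cpr73D. With 10 kb added the counts were 10 of 70 (14.3%) and 17.3%.

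Most Cpr genes stood in clusters, and no cluster of 2 or more genes touched the mark. Joining members up to 20 kb apart gave 33 groups, of which 21 were single genes and 12 held 2 to 8 genes, 49 genes in all. Both genes with a peak, Cpr35B and Cpr92F, were single genes. None of the 49 clustered genes overlapped a peak, and no peak lay anywhere between the first and last gene of a cluster. None of the 25 other protein-coding genes inside the clusters overlapped a peak either. The matching share in the protein-coding background, counted gene by gene, was 7.22%. With only 12 clusters, a count of 0 cannot be read as different from that background. No share over comparable groups of other genes was computed, so whether clusters differ was not tested. Genes of a cluster share their surroundings and are not independent: the 68 genes without a peak lay in only 30 stretches between neighbouring peaks. The family was spread unevenly over the genome, with 35 genes (50.0%) on 3L and 21 (30.0%) on 2R, arms that hold 19.7% and 20.5% of all protein-coding genes. On these arms 0 of 35 and 0 of 21 Cpr genes overlapped a peak, against 7.05% and 7.09% of all genes there. On 2L and 3R it was 1 of 5 each (20.0%), against 8.39% and 7.83%, and on X it was 0 of 4, against 5.1%.

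The clusters lay over a wide range of distances from a peak. Of the 10 clusters with 3 or more genes, the nearest gene lay over 50 kb from any peak in 8 and within 20 kb of one in 2. Counted singly, 57.7% of all protein-coding genes lay more than 50 kb from a peak. The cluster of 8 genes from Cpr49Aa to Cpr49Ah on 2R, 38.54 kb long, was 285.45 to 323.24 kb from the nearest peak, and it lay in a peak-free stretch of 783.1 kb that held 151 protein-coding genes. The 7 genes from Cpr47Ea to Cpr47Eg on 2R were 184.99 to 210.04 kb away, in a stretch of 1036.7 kb with 140 protein-coding genes, the longest stretch around any Cpr gene. On 3L, the 7 genes from Cpr65Au to Cpr65Az lay 111.48 to 140.96 kb away, the 4 Cpr76B genes 105.37 to 125.33 kb, the Cpr65E genes 91.58 to 98.78 kb, the Cpr72E genes 82.8 to 86.39 kb, the Cpr62B genes 51.79 to 62.09 kb and the Cpr78C genes 50.06 to 54.54 kb.

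The 2 clusters whose nearest gene lay within 20 kb of a peak were both on 3L. The 4 genes from Cpr64Aa to Cpr64Ad lay 12.84 to 20.08 kb from a peak of 3410 bp and 2.20-fold over ImpL2, an ecdysone-inducible gene whose product binds insulin-like peptides. The 3 Cpr67F genes lay 5.19 to 9.19 kb from a row of peaks 32.04 kb long that reached 3.58-fold and began 763 bp beyond the gene Aps. Peaks covered 29.18% to 31.13% of the windows that reach 50 kb to either side of the Cpr67F genes, more than for any other member, yet none of the 3 genes was touched. Reads from close copies such as Cpr67Fa1 and Cpr67Fa2, or Cpr65Ax1 and Cpr65Ax2, may not map uniquely, and whether this lowers the peak count there was not tested.

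**Figure D2:**
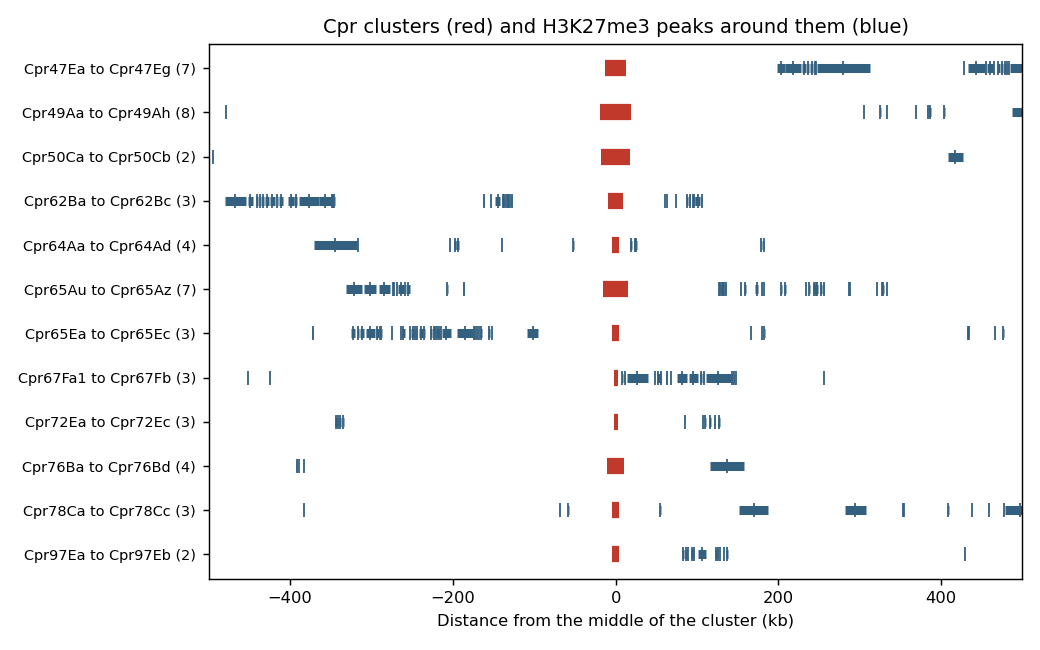
The 12 Cpr clusters of 2 or more genes (red bars, to scale; number of genes in brackets) and the H3K27me3 peaks of H3K27R discs within 500 kb of the middle of each (blue bars, to scale, each with a tick at its centre so that short peaks can be seen). No peak falls inside a cluster, and the Cpr64A and Cpr67F clusters have the nearest peaks.

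The farthest members were Cpr50Ca and Cpr50Cb, at 407.71 and 390.28 kb from the nearest peak, and Cpr57A at 334.51 kb, all on 2R. The peaks nearest to them, though far away, were high. For the Cpr50C genes it was a 5.04-fold peak of 19414 bp over Sox15. For Cpr57A it was a 13.6-fold peak of 89578 bp over the homeobox genes Rx, otp and hbn. Over all members, 8 of the 32 different nearest peaks were strong (25.0%), as did 16.6% of all peaks.

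Counted gene by gene, distances over the whole family were somewhat longer than over all genes, a difference that depended on which peaks were counted. The Cpr value also depended on whether genes or clusters were counted. Among genes without a peak the median distance to the nearest one was 100.6 kb for Cpr genes, with quartiles of 38.1 and 190.4 kb, and 75.9 kb for all protein-coding genes, with quartiles of 28.2 and 159.1 kb. More than 50 kb separated 50 of the 70 Cpr genes (71.4%) from a peak, against 57.7% of all genes. Counted against strong peaks, the medians were 205.5 kb for Cpr genes and 210.0 kb for all genes, and against peaks of at least 3000 bp they were 170.0 and 167.9 kb, so the longer distance was not seen there. With 1 value per cluster or single gene, the shortest in each, the Cpr median was 54.1 kb, for which no value over all genes was computed. Whether the longer distance holds by cluster was therefore not tested. The peak-free stretches around Cpr genes were also of the usual size: 24 of 70 genes (34.3%) lay in a stretch of at least 500 kb, as did 32.5% of all protein-coding genes.

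**Figure D3:**
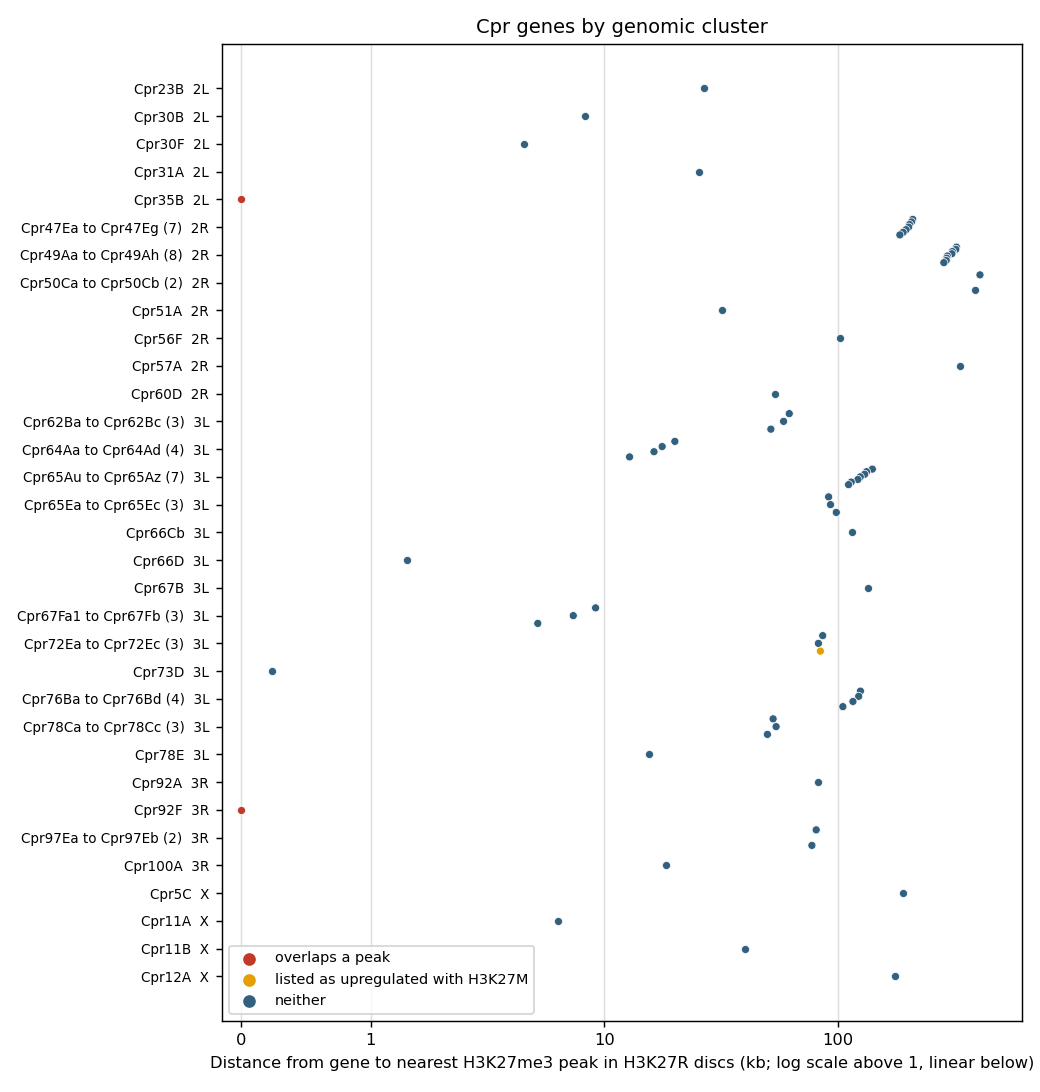
Distance of each of the 70 Cpr genes to the nearest H3K27me3 peak in H3K27R discs, in kb (log scale above 1, linear below), 1 row per cluster or single gene with its arm and, in brackets, the number of genes; small vertical offsets only separate points. Cpr35B and Cpr92F (red) are at 0, Cpr72Eb (orange) is listed as upregulated, and the large clusters on 2R lie beyond 100 kb.

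**Figure D4:**
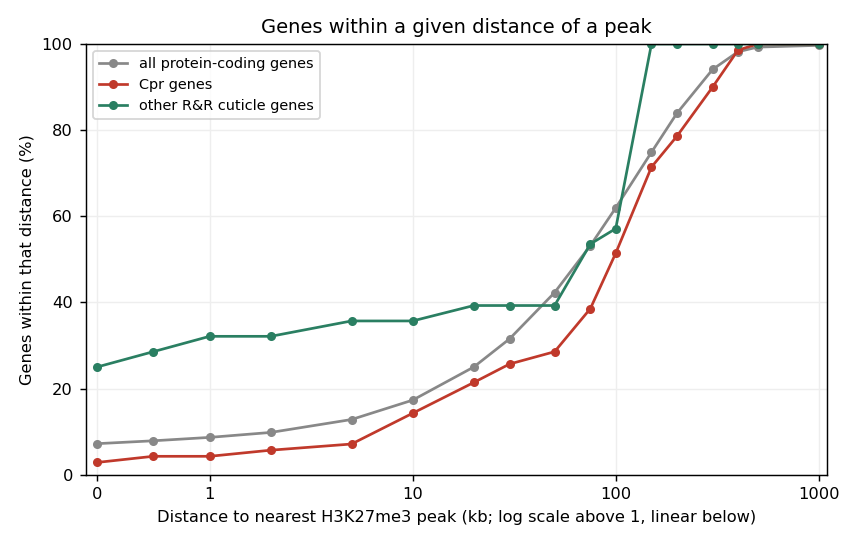
Percentage of genes (y axis) within a given distance of an H3K27me3 peak (x axis, kb, log scale above 1) for the 70 Cpr genes, the 28 other R&R cuticle genes and all 13922 protein-coding genes. The Cpr curve starts at 2.86% and runs below that of all genes up to 300 kb, and the curve of the other R&R genes starts at 25.0%.

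The Cpr genes were compact and simple. Their median span was 1093.5 bp, from 457 bp for Cpr65Ax1 to 18590 bp for Cpr73D, and the median over all protein-coding genes was 2163 bp. A single RefSeq transcript was annotated for 53 of 70 (75.7%), against 49.5% of all protein-coding genes. Cpr49Ac had the most transcripts, 6. Neighbours in a cluster stood as close as 58 bp, in the cluster from Cpr47Ea to Cpr47Eg, and 186 bp, between Cpr72Eb and Cpr72Ec.

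One Cpr gene was listed by the authors as upregulated with H3K27M. Cpr72Eb (3L 16364899 to 16365707, plus strand, 809 bp) matched a listed interval to the base, 1 of 70 genes (1.43%), while 0.941% of all protein-coding genes were listed. Asking for 1 bp of overlap with a listed interval in place of the exact match gave the same gene, and 1.57% of all protein-coding genes. With 1 gene this share cannot be read as different from the background. Its neighbours were not listed, although Cpr72Ea ends 1148 bp before it and Cpr72Ec begins 186 bp after it, and the nearest other listed gene, hzg, was 360.2 kb away. Cpr72Eb had no H3K27me3 peak in H3K27R discs. The nearest one, of 331 bp and 2.55-fold, lay 84.43 kb away, about as far as from Cpr72Ea (86.39 kb) and Cpr72Ec (82.8 kb). The 2 Cpr genes that carried a peak, Cpr35B and Cpr92F, were not listed, nor were the other 67. The sources used here do not say how the authors called the listed genes, and a gene that is not listed may have changed below their threshold.

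Other R&R cuticle genes, which bear older names, differed from the Cpr genes in one place. Of 28 such genes, 7 overlapped a peak (25.0%; all protein-coding genes, 7.22%), and all 7 were in the Ccp84A group with Edg84A on 3R. This group lies between the Hox genes lab and pb in the Antennapedia complex. Edg84A and Ccp84Ad to Ccp84Ag were covered over 100% of their spans by the 9.95-fold peak of 33662 bp (3R 6660886 to 6694547) that also covers all of lab. Ccp84Ac was covered over 71.4% by a 3.06-fold peak and Ccp84Ab over 100% by a 2.41-fold peak, and Ccp84Aa, at 0.91 kb from a peak, was the one of the 8 genes without one. The 20 R&R genes outside the 84A group had no peak, a count that follows from setting apart the group that held all 7. Among these were the 11 Lcp65A and Acp65Aa genes, 120.3 to 142.1 kb from the nearest peak, of which many stand between the Cpr65A genes on 3L. Together with the Cpr genes, 9 of 98 R&R genes overlapped a peak, a higher share than that of all protein-coding genes. The lower share was thus that of the genes named Cpr, not of all R&R genes taken here. No R&R gene of another name was listed as upregulated.

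Most genes of 4 further lists, whose products act with the Cpr proteins in building cuticle or control them, were also without a peak, and each list held at least 1 gene with one. Of all protein-coding genes, 7.22% had a peak and 0.941% were listed as upregulated. Below, the share covered counts every peak in the gene, and the fold is that of its highest peak. Of the 25 Tweedle genes, another family of cuticular proteins, TwdlV overlapped a peak (29.9% covered, 1.86-fold). Of 19 genes of chitin synthesis, modification and breakdown, Cda4, a chitin deacetylase gene, did (20.1% covered, 2.67-fold), and kkv, the chitin synthase gene of the epidermis, did not. Of 17 regulators of cuticle genes and of the ecdysone response, 4 overlapped a peak: vvl (80.0% covered, 5.70-fold), Eip74EF (5.88% covered, 4.35-fold), Hr38 (22.3% covered, 3.00-fold), and grh, which encodes the Grainy head factor of epidermal barrier genes (1.15% covered, 3.65-fold). These regulator genes are mostly long, with a median span of 33354 bp, and 13.0% of all protein-coding genes over 5000 bp overlapped a peak. Of the 4 with a peak, grh, Hr38 and Eip74EF are over 5000 bp. The most covered and highest, vvl, spans only 4784 bp. For genes above 2000 and up to 5000 bp the share was 5.1%. Whether length accounts for the count of 4 was not tested. Of 8 genes of pigmentation and hardening, ple, which encodes tyrosine hydroxylase, was covered over 6.13% (2.13-fold) and yellow-e over 44.5% (2.54-fold). In these 4 lists yellow-e was the one gene listed as upregulated.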

How the data were processed

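The authors' deposited peak list has no header. Per its layout it gives each peak's coordinates, a score, a fold enrichment relative to the caller's background, and 2 columns from the authors' caller, the −log10 q-value and an unused −log10 p-value. Nor was the deposited score used, and the score column of the authors' list of upregulated genes is 0 throughout. The submitters' processing notes name Bowtie2, MACS2 and build dm6. Versions, thresholds and the background library were not given in the sources used here. Peaks reach down to a −log10 q-value of 1.05 and a fold of 1.73. Read depth is unknown.

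Peaks were joined to the RefSeq gene table of Release 6 (the assembly dm6 names) with python 3.11.15 and pandas 2.3.3, in 1-based coordinates. Overlap meant at least 1 bp of the gene span. A listed gene had the same start and end as a listed interval. A row of peaks bridges gaps of up to 5000 bp, and clusters join Cpr genes up to 20 kb apart. The overlap and distance calculation was tested on simulated data. Genes named are all Cpr genes with a peak or on the list, clusters of 3 or more, and the 5 nearest and 3 farthest genes without a peak. Genes of the 5 comparison lists were named where they had a peak or were listed. Other genes at neighbouring peaks were named after their values were seen, and kkv was named outside these rules. Of 9 symbols for pigmentation and hardening, 8 matched. The members and lists were chosen with earlier results of these data known. Protein and promoter sequences were not used here.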

Additional observations from a re-analysis of the deposited data

How the results depend on the processing

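No paired analysis was possible because the deposited lists carry no values of single replicates, which also means that leaving one out could not be tried. The count of Cpr genes with a peak (2 of 70) became 1 when at least 50% of the span had to be covered, with a gene end in a peak, with peaks of median fold or higher and with peaks of at least 3000 bp, and it became 0 with strong peaks (−log10 q-value reaching 10). Bridging gaps left it at 2. It rose to 9 of 98 with the other R&R genes added, a share above the 7.22% of all protein-coding genes. As alternatives chosen after seeing the data, 2 kb and 10 kb added on each side gave 4 and 10. A stricter rule could only lower the count and a wider one could only raise it, while the size of each change came from the data. The count of clusters or single genes with a peak (2 of 33) was also 2 of 33 when genes were joined within 50 kb, 2 of 43 within 5 kb and 2 of 33 by the section in the symbol, and it was 0 with strong peaks. Matching the upregulated list by at least 1 bp left 1 Cpr gene. The median distance was 100.6 kb, with alternatives also chosen after seeing the data. It became 205.5 kb with strong peaks, 170.0 kb with peaks of at least 3000 bp and 54.1 kb with 1 value per cluster. Fewer peaks count under the first 2 rules. Under the last, only the shortest distance in each cluster or single gene counts. The search for the R&R consensus and for promoter motifs was not run for want of sequences.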
